A study of Mus musculus with 16 samples.

Results

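The adipocyte genes examined here are 10 genes expressed in fat cells, though not all of them only there, read in RNA from dissected mouse skeletal muscle. They were chosen by name: Adipoq, Lep, Retn and Cfd, which encode secreted proteins, Plin1 and Cidec, which encode lipid droplet proteins, Fabp4 and Pparg, a fatty acid carrier and a nuclear receptor, and Ucp1 and Cidea, which mark brown fat. The array held 12 probes for them out of 55681 probes that were not controls, and all 10 genes were among the 28964 genes tested. Cidec and Retn had 2 probes each, and the Lep and Pparg probes were each spotted 10 times.

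Fat cells sit between muscle fibres and bundles and along the surface of a dissected muscle. White adipocytes store triglyceride in a single large droplet coated by perilipin 1 and enlarged with the help of CIDEC, and they secrete adiponectin, leptin, complement factor D (adipsin) and, in mice, resistin. Brown adipocytes hold many small droplets and dissipate energy as heat through the mitochondrial uncoupling protein UCP1. PPARG is the nuclear receptor that drives fat cell formation. FABP4 is abundant in adipocytes and is also made by capillary endothelial cells and macrophages.

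RNA came from male mice, 21 to 23 weeks of age at the labelled stage, of 4 groups with 4 biological replicates and 1 array each. WT denotes control littermates (Skm-CB1R+/+) and CB1KO denotes mice made to lack the cannabinoid 1 receptor gene, Cnr1, in skeletal muscle (Skm-CB1R-/-). Both came from crosses of LoxP-flanked CNR1flox/flox mice with Acta-Cre mice, whose Cre recombinase is driven by the ACTA1 promoter, which is active in muscle fibres. The growth protocol writes both genotypes as Cre+, so the genotype was taken from the sample titles. WT_SD and CB1KO_SD mice ate a standard diet with 16.7% of energy (kJ) from fat and 12.4% from sugar, and WT_HFHS and CB1KO_HFHS mice a diet with 49.2% from fat and 32.2% from sugar, for 15 weeks. The diet characteristic contradicts the titles for CB1KO_SD and WT_HFHS, and the titles, which match the source names and descriptions, were followed. The treatment protocol also mentions vehicle or S961 without tying either to an array, and the muscle dissected is not named.

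Levels are log2 signal relative to the 75th percentile of each array, and a level of one gene cannot be set against that of another because probes differ in brightness. The muscle genes Ckm, Acta1 and Tnnt3 lay at or above the 99.5th percentile of mean level over all genes tested, and Mylpf, a fast fibre myosin light chain, at the 89.0th. Between 56.7% and 75.04% of spots stood well above background. The SD arrays shared slide 1 and the HFHS arrays slide 2, which leaves diet and slide impossible to tell apart, and on each slide the genotypes filled separate rows. CB1KO_SD replicate 2 and CB1KO_HFHS replicate 1 stood apart in the SD of their log2 signal, at 2.89 and 3.97 against 3.14 to 3.69 on the other 14 arrays. CB1KO_HFHS replicate 1 was the lowest of the 16 arrays for 32.8% of all genes. Cnr1, the targeted gene, averaged -2.73 ± 0.72 in WT_SD, -2.97 ± 0.69 in CB1KO_SD, -2.30 ± 0.64 in WT_HFHS and -2.44 ± 0.68 in CB1KO_HFHS (SD, n = 4 each), and the genotypes overlapped on both diets. The position of its probe relative to the deleted part is not known, so these levels do not check the genotype labels.

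Most of the adipocyte genes varied between mice of one group more than between groups. Adiponectin (Adipoq) ranged 102-fold over the 16 arrays. It read 3.91, 3.57, 4.55 and -0.86 in WT_SD replicates 1 to 4 and 3.13, 2.59, -1.19 and 1.91 in CB1KO_SD. In WT_HFHS it read 4.22, 3.23, 3.04 and 3.27, and in CB1KO_HFHS 5.49, 2.96, 2.59 and 3.85. WT_SD replicate 4 and CB1KO_SD replicate 3 lay far below the other 14 arrays, the third lowest array being at 1.91, and all 4 groups overlapped. Ordered by mean, Adipoq stood at 3.72 ± 1.29 in CB1KO_HFHS, 3.44 ± 0.53 in WT_HFHS, 2.79 ± 2.47 in WT_SD and 1.61 ± 1.93 in CB1KO_SD (SD, n = 4 each). Neighbours in that order did not differ beyond their spread (exact permutation p = 0.771, 0.914 and 0.457, two-sided, from the highest pair to the lowest).

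**Figure D1:**
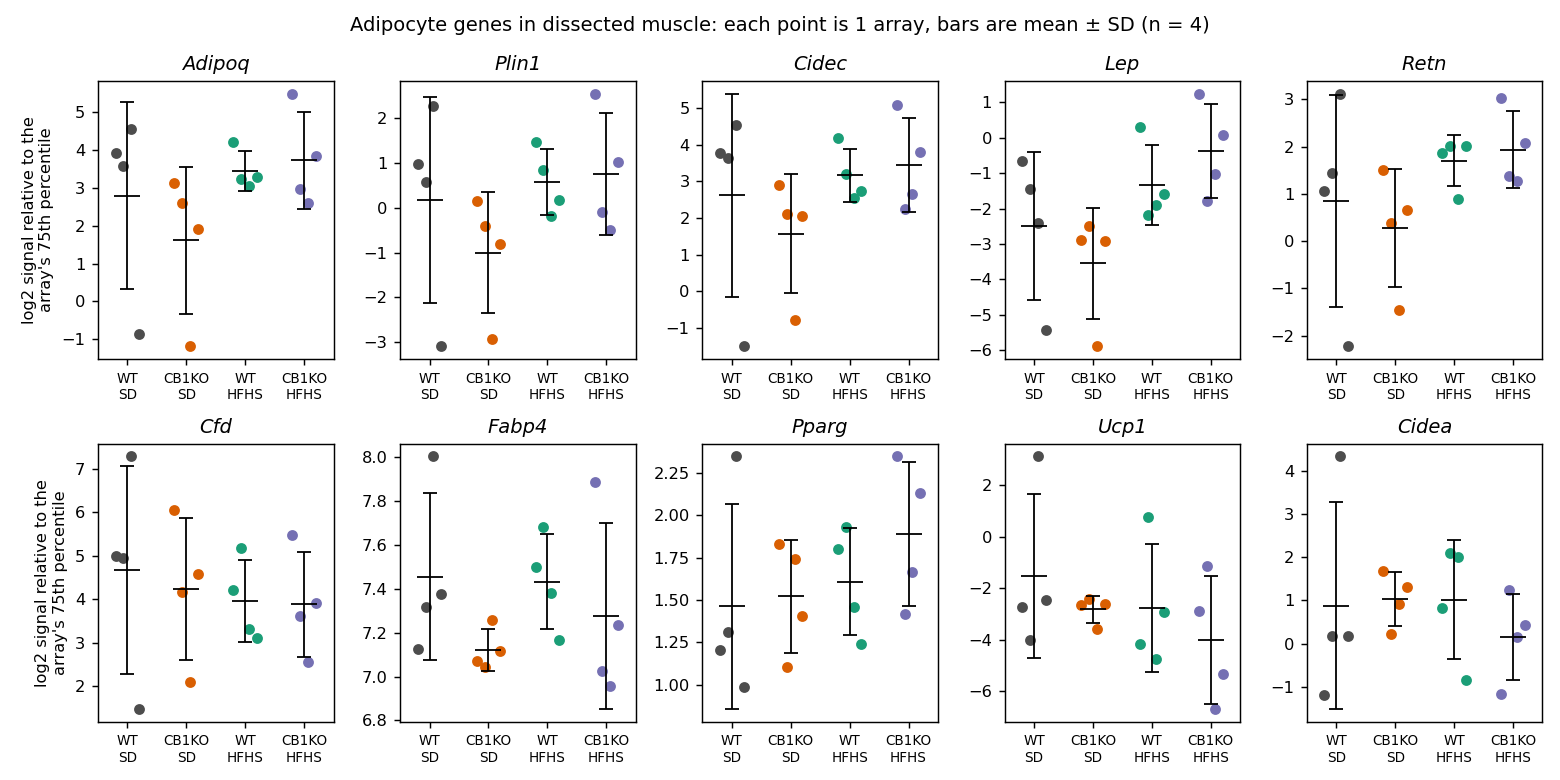
Log2 signal of the 10 genes relative to the 75th percentile of each array, with 1 point per array (replicates 1 to 4 from left to right) and bars for the mean ± SD of the 4 arrays of a group. Adipoq, Plin1, Cidec, Lep, Retn and Cfd each have a low point in WT_SD (replicate 4) and in CB1KO_SD (replicate 3), Ucp1 and Cidea have a high point in WT_SD (replicate 3), and Fabp4 and Pparg keep within 2.06-fold and 2.56-fold ranges.

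Transcripts of the other secreted proteins were lowest on the same 2 arrays as Adipoq. Leptin (Lep), the hormone that reports fat stores to the brain, read -0.65, -1.45, -2.41 and -5.45 in WT_SD, -2.88, -2.49, -5.90 and -2.92 in CB1KO_SD, 0.32, -2.17, -1.90 and -1.59 in WT_HFHS and 1.25, -1.79, -1.04 and 0.09 in CB1KO_HFHS. It was not well above background on WT_SD replicate 4 and on CB1KO_SD replicates 2 and 3. The lowest 2 arrays were again WT_SD replicate 4 and CB1KO_SD replicate 3, and the highest were CB1KO_HFHS replicate 1 and WT_HFHS replicate 1. The 10 Lep spots of an array had a median SD of 0.10 over the 16 arrays, and 0.634 on CB1KO_SD replicate 3, the lowest array.

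Resistin (Retn), a secreted factor that lowers insulin response in mice, ranged 40.7-fold, with 1.06, 1.44, 3.12 and -2.23 in WT_SD, 1.5, 0.39, -1.45 and 0.67 in CB1KO_SD, 1.86, 2.02, 0.90 and 2.02 in WT_HFHS and 3.03, 1.38, 1.27 and 2.07 in CB1KO_HFHS. Cfd, the serine protease adipsin of the alternative complement pathway, ranged 56.4-fold, with 4.99, 4.95, 7.28 and 1.47 in WT_SD, 6.04, 4.17, 2.09 and 4.59 in CB1KO_SD, 4.20, 5.18, 3.31 and 3.11 in WT_HFHS and 5.47, 3.60, 2.54 and 3.91 in CB1KO_HFHS. By the probes used, both were highest on WT_SD replicate 3 and lowest on WT_SD replicate 4, 2 mice of the same genotype and diet. The second Retn probe followed the first over the 16 arrays with Pearson r = 0.99 and Spearman rho = 0.98, but read highest on CB1KO_HFHS replicate 1 (2.96, against 2.93 on WT_SD replicate 3).

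The transcripts of the droplet proteins behaved alike. Plin1, which guards stored triglyceride from lipases, read 0.98, 0.57, 2.28 and -3.09 in WT_SD, 0.15, -0.41, -2.94 and -0.80 in CB1KO_SD, 1.47, 0.85, -0.18 and 0.18 in WT_HFHS and 2.55, -0.09, -0.48 and 1.02 in CB1KO_HFHS. Cidec, which fuses droplets, read 3.79, 3.65, 4.55 and -1.51 in WT_SD, 2.90, 2.12, -0.79 and 2.06 in CB1KO_SD, 4.18, 3.21, 2.54 and 2.74 in WT_HFHS and 5.09, 2.25, 2.66 and 3.81 in CB1KO_HFHS. The same 2 SD arrays were lowest for both, and CB1KO_HFHS replicate 1 was highest for both. The dimmer Cidec probe followed the brighter with r = 0.98 and rho = 0.94, and was not well above background on those 2 low arrays.

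Fabp4 and Pparg did not have this spread. Fabp4 kept within a 2.06-fold range, from 6.96 to 8.003, with 7.13, 7.32, 8.003 and 7.37 in WT_SD, 7.07, 7.04, 7.26 and 7.11 in CB1KO_SD, 7.5, 7.68, 7.38 and 7.16 in WT_HFHS and 7.89, 7.02, 6.96 and 7.24 in CB1KO_HFHS. On WT_SD replicate 4 and CB1KO_SD replicate 3, where Adipoq was lowest, Fabp4 was at 7.37 and 7.26, above its median of 7.25 over the 16 arrays. Pparg kept within a 2.56-fold range, with 1.20, 1.31, 2.35 and 0.99 in WT_SD, 1.83, 1.11, 1.74 and 1.41 in CB1KO_SD, 1.80, 1.93, 1.46 and 1.24 in WT_HFHS and 2.34, 1.42, 1.67 and 2.13 in CB1KO_HFHS. Its 10 spots had a median SD of 0.057.

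The brown fat genes followed other arrays. Ucp1 had the widest range of the 10 genes, 882-fold, and read -2.73, -4.02, 3.10 and -2.46 in WT_SD, -2.66, -2.42, -3.58 and -2.62 in CB1KO_SD, -4.16, 0.75, -4.73 and -2.93 in WT_HFHS and -2.88, -1.13, -6.68 and -5.32 in CB1KO_HFHS. It was not well above background on WT_HFHS replicate 3 and CB1KO_HFHS replicates 3 and 4, so its lower end is uncertain. Cidea, a droplet protein related to CIDEC and abundant in brown fat, read -1.18, 0.18, 4.33 and 0.18 in WT_SD, 1.67, 0.23, 0.91 and 1.31 in CB1KO_SD, 0.83, 2.09, 2.0 and -0.84 in WT_HFHS and -1.17, 1.23, 0.15 and 0.43 in CB1KO_HFHS. Both were highest on WT_SD replicate 3, where Ucp1 was 5.10-fold and Cidea 4.72-fold above the next highest array.

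The spread within groups was set against that of all genes. The residual SD over the 16 arrays, with 12 degrees of freedom, was 1.71 for Adipoq, 1.58 for Lep, 1.54 for Plin1, 1.77 for Cidec, 1.64 for Cfd, 1.37 for Retn, 2.37 for Ucp1 and 1.498 for Cidea, against a median of 0.349 over all genes tested. These 8 genes lay at the 97.5th percentile or above. Lep and Ucp1 were each well above background on only 13 of the 16 arrays, so the size of their spread is less certain. Fabp4, at 0.309, and Pparg, at 0.434, lay at the 44.3rd and 59.0th percentiles. Genes of low signal also spread widely, and among genes of similar level the 8 genes lay at or above the 99.5th percentile and Fabp4 and Pparg at the 91.8th and 91.3rd.

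**Figure D2:**
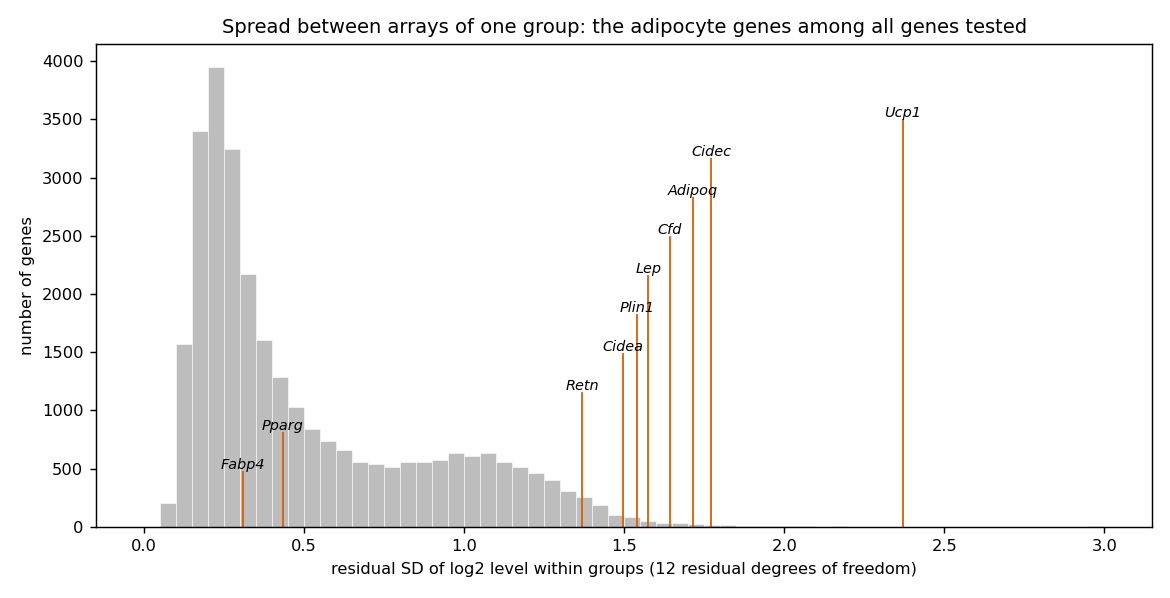
Histogram of the residual SD of log2 level within groups over the 28964 genes tested, with an orange line at the value of each of the 10 genes (line heights only separate the names). Fabp4 and Pparg fall within the main body of genes, 7 genes lie between 1.37 and 1.77, and Ucp1 lies at 2.37.

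Agreement from array to array was measured on deviations from the group means, so that differences between groups do not enter. Adipoq correlated with Cidec (Pearson r = 0.98, Spearman rho = 0.98), Plin1 (r = 0.97, rho = 0.97), Retn (r = 0.93, rho = 0.82), Cfd (r = 0.90, rho = 0.84) and Lep (r = 0.90, rho = 0.85) over the 16 arrays. Permutation p-values within groups (100000 permutations, two-sided, adjusted over 26 relations) were 0.00078, 0.00026, 0.00195, 0.00328 and 0.00715 for r and 0.00052, 0.00065, 0.0127, 0.0108 and 0.0108 for rho, in that order. The Plin1 value of r rests on the smallest p that these permutations can give, 1e-05 before adjustment. Among Adipoq, Lep, Plin1, Cidec, Cfd and Retn the 15 pairs had r from 0.67 to 0.98 with a median of 0.93. Without WT_SD replicate 4 and CB1KO_SD replicate 3, the same pairs ran from 0.13 to 0.96 with a median of 0.75. The lowest were Lep with Cfd (0.13) and Lep with Retn (0.17). Lep was not well above background on either array left out.

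Agreement with Adipoq was weaker and did not pass for Pparg (r = 0.44, rho = 0.49, adjusted permutation p = 0.47 and 0.338), Fabp4 (r = 0.30, rho = 0.29, adjusted p = 0.55 and 0.508), Ucp1 (r = 0.26, rho = 0.31, adjusted p = 0.558 and 0.508) and Cidea (r = 0.09, rho = -0.17, adjusted p = 0.832 and 0.646). Without WT_SD replicate 4 and CB1KO_SD replicate 3, the 2 arrays farthest from the median, r with Adipoq was 0.96 for Plin1, 0.94 for Cidec, 0.75 for Retn, 0.74 for Cfd and 0.68 for Lep. Unadjusted permutation p-values over these 14 arrays were 6e-05, 0.00122, 0.00567, 0.00983 and 0.0331. On the same 14 arrays Fabp4 and Pparg had r of 0.73 and 0.67 with Adipoq (unadjusted permutation p = 0.0188 and 0.0137), so their low correlation over 16 arrays rests on those 2 arrays. Fabp4 and Pparg correlated with each other at r = 0.83, and Ucp1 with Cidea at r = 0.58, described without a test. Ucp1 and Cidea both had their largest deviation on WT_SD replicate 3 (4.63 and 3.46). Their r without that array was not computed, so it may rest largely on 1 array.

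**Figure D3:**
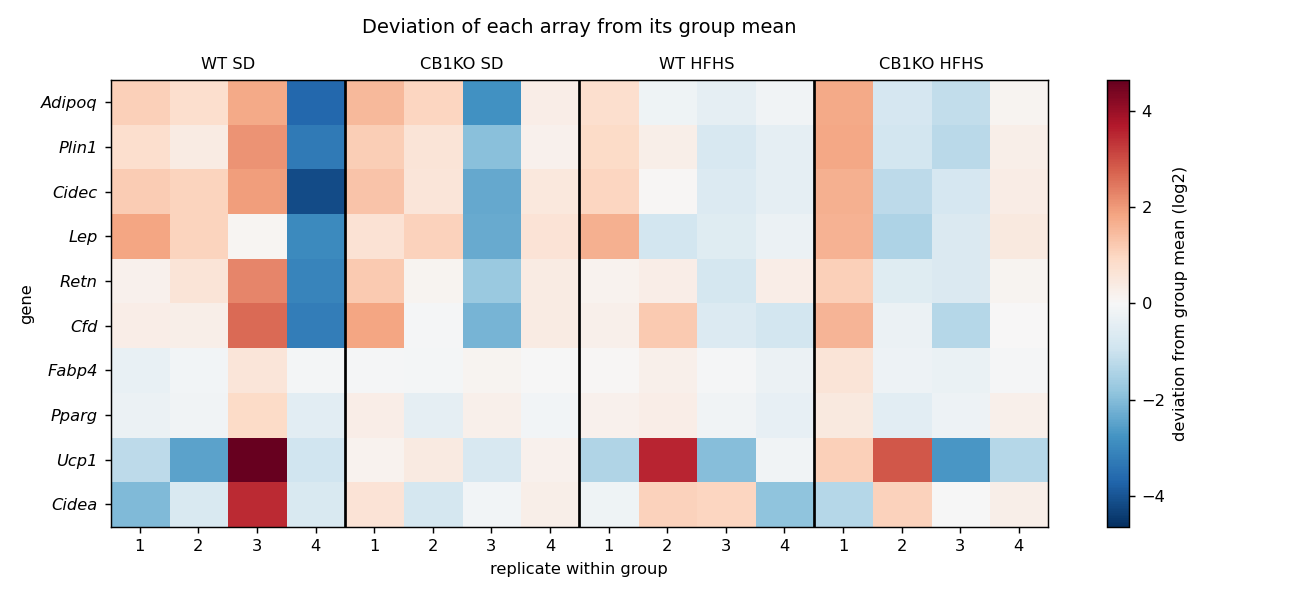
Heat map of the deviation of each array from its group mean (log2, red above and blue below), with genes as rows and the 4 replicates of each group as columns. The upper 6 rows share blue columns at WT_SD replicate 4 and CB1KO_SD replicate 3 and red columns at CB1KO_HFHS replicate 1, with Lep near 0 at WT_SD replicate 3, where the other 5 are red, while Ucp1 and Cidea are strongest at WT_SD replicate 3.

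**Figure D4:**
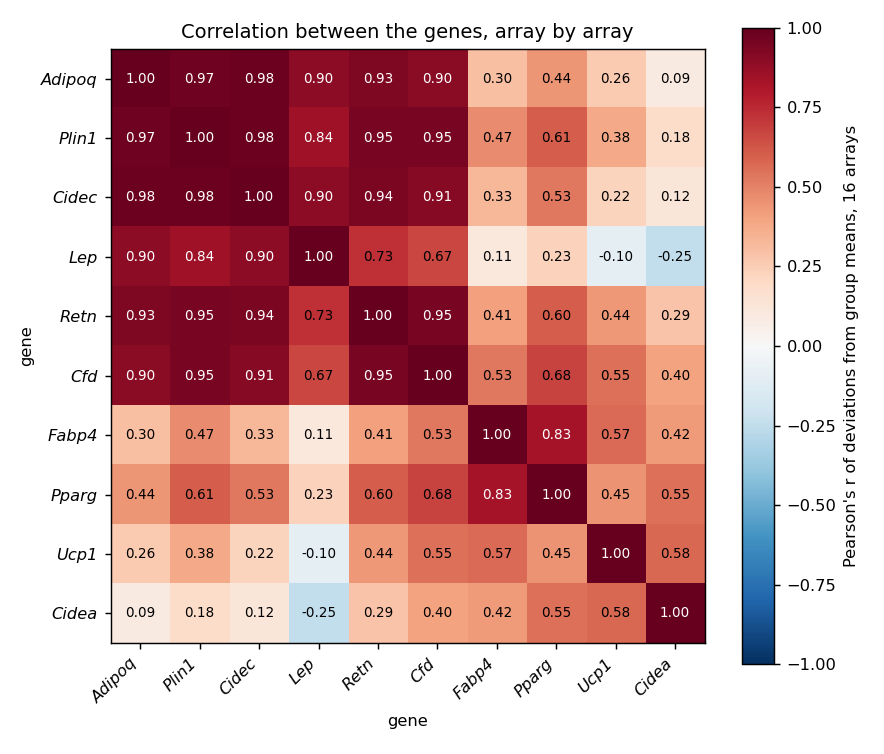
Matrix of Pearson r between the 10 genes over the 16 arrays, computed on deviations from group means, with the value printed in each cell. The block of Adipoq, Plin1, Cidec, Lep, Retn and Cfd holds values from 0.67 to 0.98, and without the 2 arrays lowest in Adipoq (not drawn) its lowest value is 0.13, for Lep with Cfd.

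For Adipoq, Lep, Plin1 and Cidec, the 250 bases before an annotated start are shown as examples. They come from RefSeq on build GRCm38.p6 and read 5' to 3' on the strand of the gene. Retn (r = 0.93) and Cfd (r = 0.90) moved with Adipoq as closely as Lep did (r = 0.90). Retn, Cfd and the other Cidec start were searched too but are not shown. Adipoq lies at chr16:23146286-23146535 (plus strand), Lep at chr6:29059971-29060220 (plus), Plin1 at chr7:79732777-79733026 (minus) and the Cidec start used here at chr6:113434765-113435014 (minus). Capitals mark matches on either strand to TTGCNNAA, a form of the site bound by C/EBP proteins, which act in fat cell formation.
Adipoq: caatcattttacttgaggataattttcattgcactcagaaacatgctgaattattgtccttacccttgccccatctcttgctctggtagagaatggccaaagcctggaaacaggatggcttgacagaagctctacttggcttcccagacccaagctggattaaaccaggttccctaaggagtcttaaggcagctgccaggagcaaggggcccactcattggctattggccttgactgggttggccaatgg
Lep: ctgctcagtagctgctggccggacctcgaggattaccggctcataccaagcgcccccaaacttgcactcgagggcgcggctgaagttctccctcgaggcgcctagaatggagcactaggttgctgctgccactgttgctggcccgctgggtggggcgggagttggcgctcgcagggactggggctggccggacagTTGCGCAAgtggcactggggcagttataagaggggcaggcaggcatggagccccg
Plin1: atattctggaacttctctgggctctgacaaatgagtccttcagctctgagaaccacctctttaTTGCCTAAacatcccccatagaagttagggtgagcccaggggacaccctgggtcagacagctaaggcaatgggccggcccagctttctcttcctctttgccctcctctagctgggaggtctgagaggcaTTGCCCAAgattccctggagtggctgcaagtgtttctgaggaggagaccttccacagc
Cidec: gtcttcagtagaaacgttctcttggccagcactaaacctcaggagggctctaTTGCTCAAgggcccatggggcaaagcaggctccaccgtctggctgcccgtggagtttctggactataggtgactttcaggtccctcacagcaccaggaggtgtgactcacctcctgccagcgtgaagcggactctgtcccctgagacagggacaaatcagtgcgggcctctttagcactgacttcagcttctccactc
Lep held a match at -55 to -48, which reads the same on both strands, Plin1 held matches at -187 and -58, and this Cidec promoter held a match at -198. Adipoq held none, nor did Retn, Cfd or the other Cidec start. The motif occurs in 9.56% of 32851 promoters of this length. The other motifs searched on both strands were AGGTCA (14.02% of promoters), AGGNCANAGGNCA (0.338%), CACGTG (6.02%) and TATAAA (12.4%), of which AGGNCANAGGNCA contains AGGNCA in repeat, and none occurs in the sequences of these 6 genes. Promoter sequences were searched for 8 of the 10 genes. Fabp4 and Cidea were not searched, so nothing is known here of their matches. Among genes whose correlation with Adipoq did not pass, Pparg held TTGCNNAA at -215 and -16, and also AGGTCA and TATAAA, over its annotated starts. Ucp1 held AGGTCA. A match describes letters only.

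Genes outside the 10 were ranked by their likeness to Adipoq. Of 28963 other genes, 23 had r of 0.9 or more with Adipoq, 4 of them among the genes described here. The 10 most alike outside them, ranked by r of deviations over the 16 arrays, were Tmem45b (0.99), Nnat (0.98), Slc7a10 (0.98), Acvr1c (0.96), Scd1 (0.93), Aldh1a7 (0.93), Rbp4 (0.93), Serpina3c (0.93), Cdo1 (0.93) and Car5b (0.93). Slc7a10 is an amino acid transporter, Acvr1c an activin receptor, Scd1 a fatty acid desaturase and Rbp4 the retinol carrier of plasma. Without the 2 lowest arrays their r ranged from 0.89 to 0.96.

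Tmem45b covered a 153-fold range and read -4.15 on WT_SD replicate 4 and -4.05 on CB1KO_SD replicate 3, against -0.61 on the third lowest array. Scd1 covered 42.3-fold, with 0.61 and 1.22 on those arrays against 2.62. For both genes the 2 low arrays were those of Adipoq. Both were picked for their high r with Adipoq on these same arrays, so the shared low arrays are no separate evidence.

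Other cell types were followed through marker lists. Of 29 measured white adipocyte markers, 11 had r of 0.5 or more with Adipoq (37.9%), against 2.22% of all genes tested, and the mean level of the list correlated with Adipoq at r = 0.88 and rho = 0.78 (adjusted permutation p = 0.000953 and 0.0108). The lists hold none of the 10 genes, but the white list holds Nnat, Acvr1c and Rbp4, already named for their high r. Adrb3 (r = 0.76), the adipocyte beta-3 adrenoceptor, and Aoc3 (r = 0.92), an amine oxidase of the adipocyte surface, were among them. Car3 (r = -0.28), Slc2a4 (r = -0.20) and Cd36 (r = -0.27), which muscle fibres also make, were not. Nor were other markers of the list, such as Adig (r = 0.06), Aqp7 (r = 0.05), Sfrp4 (r = 0.18) and Lipe (r = 0.33). No marker reached r of 0.5 among 14 macrophage, 13 endothelial, 8 blood, 7 skin, 9 lymphocyte, 15 fast fibre or 13 slow fibre genes over the 16 arrays. Without the 2 arrays lowest in Adipoq, the list means had r with Adipoq of 0.59 for macrophage (from -0.12 over 16 arrays), -0.69 for skin (from -0.33) and -0.62 for fast fibre genes (from -0.24), with unadjusted permutation p = 0.0681, 0.0452 and 0.125. WT_SD replicate 4, low in Adipoq, had a macrophage mean of 1.78, against 0.00 to 0.35 on the other WT_SD arrays, and was the highest array for 11.7% of all genes. CB1KO_SD replicate 3, also low in Adipoq, had a macrophage mean of 0.02. The part of these lists in the fat gene levels was not tested.

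Shares were lower for brown adipocyte markers (6 of 24), lipogenic enzymes (4 of 18, with Scd1 at 0.93 and Pck1 at 0.90), nerve genes (3 of 10), adipogenic regulators (2 of 20, with Ebf1 at 0.86 and Cebpa at 0.75), lipid droplet genes (2 of 18, with G0s2 at 0.74), progenitor genes (2 of 18) and smooth muscle genes (1 of 10). The list means had adjusted permutation p-values of at least 0.141 for r and 0.166 for rho in these lists. Both lowest values were those of the lipogenic list (r = 0.69, rho = 0.60). Without the 2 arrays lowest in Adipoq its r was 0.73 (unadjusted permutation p = 0.00491). The mean of the droplet list had r = 0.25 and rho = 0.16 with Adipoq.

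Relatives that muscle fibres express in quantity stayed apart. Fabp3, the carrier of muscle and heart, covered a 3.02-fold range with r = -0.27 to Adipoq, and read 8.10 and 8.34 on the 2 arrays with the least Adipoq. Plin2, the droplet coat protein of many tissues, covered 4.06-fold (r = 0.03), and Plin5, the coat protein of oxidative muscle, 5.804-fold (r = -0.09). Lpl, lipoprotein lipase, covered 4.72-fold (r = 0.03). None of these 4 genes was at its lowest on WT_SD replicate 4 or CB1KO_SD replicate 3.

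WT_SD replicate 3 was high for white and brown fat genes and for other lists. It was the highest of the 16 arrays for Fabp4, Cfd, Ucp1 and Cidea. Pparg was level there with CB1KO_HFHS replicate 1 (2.35 and 2.34), and Retn was highest there by the probe used (3.12 against 3.03) but not by its other probe (2.93 against 2.96). The array was also highest for the mean of the nerve list (0.80, next 0.62) and of the lipogenic list (2.79, next 2.29), and the part of these in the fat gene levels was not tested. It was highest for 7 of 24 measured brown adipocyte markers (29.2%), against 3.19% of all genes. Slc27a2, a fatty acid transporter, stood 7.40-fold above the next array there, although it was well above background on only 4 arrays. Zic1, a brown fat transcription factor, was 1.38-fold and Nrg4, a secreted factor of brown fat, 1.43-fold above the next array. Ntrk3 was 1.69-fold above it. The leads of Kcnk3 (1.09-fold), S100b (1.08-fold) and Letmd1 (1.04-fold) were small, and S100b is also on the nerve list.

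Other genes on that list did not stand out on WT_SD replicate 3. Cox8b and Cox7a1, which muscle fibres express strongly, were 1.01-fold and 0.907-fold the median of the other arrays, and Prdm16 and Ppargc1a were 1.11-fold and 0.715-fold. Dio2, the thyroid hormone deiodinase, was 0.606-fold. Elovl3 and Lhx8 failed the filter and were not above background on this array.

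The comparisons between groups ask whether genotype or diet moved the fat genes. None of the 10 genes passed an adjusted p of 0.05 (limma, Benjamini-Hochberg over 28964 genes) in any of 6 contrasts. The share of all genes that passed was 0.00345% for CB1KO against WT on SD, 0.249% on HFHS, 0.763% averaged over both diets, 0% for the interaction, 0% for HFHS against SD in WT and 0.0276% in CB1KO. In both contrasts with no gene passing, some genes had an unadjusted limma p under 0.05, none of them among the 10. They were 1053 genes (3.64%) for the interaction and 1757 genes (6.07%) for HFHS against SD in WT. With 8 of the 10 genes spreading as widely as above, the number of mice limits what these contrasts can show. In tissue RNA, fewer fat cells and less RNA per fat cell cannot be told apart.

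The widest differences were those between HFHS and SD in CB1KO mice, where diet and slide cannot be told apart. Lep averaged -0.37 ± 1.33 in CB1KO_HFHS and -3.55 ± 1.58 in CB1KO_SD (SD, n = 4 each), a log2 difference of 3.18 ± 1.04 (SE, 95% confidence interval 0.95 to 5.41). Lep was well above background on only 2 of the 4 CB1KO_SD arrays, so the size of this difference is uncertain. All 4 CB1KO_HFHS arrays lay above all 4 CB1KO_SD arrays for Lep, as 2.48% of all genes did. Its unadjusted p was 0.00861 and its adjusted p 0.302 (limma over all genes), so it did not pass. Lep was the only one of the 10 genes with an unadjusted p under 0.05 in any contrast. In HFHS against SD in CB1KO, 9.59% of all genes had such a p. Without CB1KO_SD replicate 3 the difference was 2.39 ± 1.01 (limma adjusted p = 0.561), and without CB1KO_HFHS replicate 1 it was 2.64 ± 1.09 (adjusted p = 0.635).

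In the same contrast Adipoq differed by 2.11 ± 1.13 (SE, limma adjusted p = 0.575), Cidec by 1.88 ± 1.17, Plin1 by 1.75 ± 1.02 and Retn by 1.66 ± 0.90, with overlapping groups. Without CB1KO_SD replicate 3 these were 1.18, 1.09, 1.102 and 1.09. The exact permutation test of Adipoq gave p = 0.114 (two-sided), where 4 arrays against 4 allow 0.0286 at the least. Cfd (-0.34 ± 1.08), Fabp4 (0.16 ± 0.22), Pparg (0.37 ± 0.30), Ucp1 (-1.18 ± 1.56) and Cidea (-0.87 ± 0.99) had limma adjusted p-values of at least 0.709. The median over the 10 genes was 1.01, against -0.07 over all genes tested.

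Markers of other cells were read in the same contrast. Of 14 macrophage markers 14 were higher in CB1KO_HFHS, with a median of 0.64 and none past the threshold, and their mean level ran from 0.93 to 1.94 there against 0.02 to 1.18 in CB1KO_SD. Of 18 progenitor genes 17 were higher, with a median of 0.41 and none past the threshold, and mean levels of 2.48 to 3.22 against 2.02 to 2.72. Of 13 slow fibre genes 3 were higher, with a median of -0.92 and none past the threshold, and mean levels of -0.14 to 4.86 against 3.45 to 4.70. The lowest limma adjusted p in that list was 0.149, for Sln, which was higher (3.04). Next came Myh6, which was lower (-2.31, adjusted p = 0.223). The part of these 3 lists in the Lep difference was not tested.

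On the standard diet, CB1KO against WT had a median of -0.81 over the 10 genes, against -0.12 over all genes. Adipoq differed by -1.19 ± 1.13 (SE, limma adjusted p = 0.837, exact permutation p = 0.457, two-sided), Plin1 by -1.18 ± 1.02, Lep by -1.06 ± 1.04, Cidec by -1.05 ± 1.17, Retn by -0.57 ± 0.90 and Cfd by -0.45 ± 1.08. Without WT_SD replicate 4 the Adipoq difference was -2.40 ± 0.90 (limma adjusted p = 0.555) and without CB1KO_SD replicate 3 it was -0.25 ± 1.07 (adjusted p = 0.979). The size of the difference thus depended on which of the 2 low arrays was kept. Fabp4 differed by -0.33 ± 0.22, Pparg by 0.06 ± 0.30, Ucp1 by -1.29 ± 1.56 and Cidea by 0.15 ± 0.99.

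**Figure D5:**
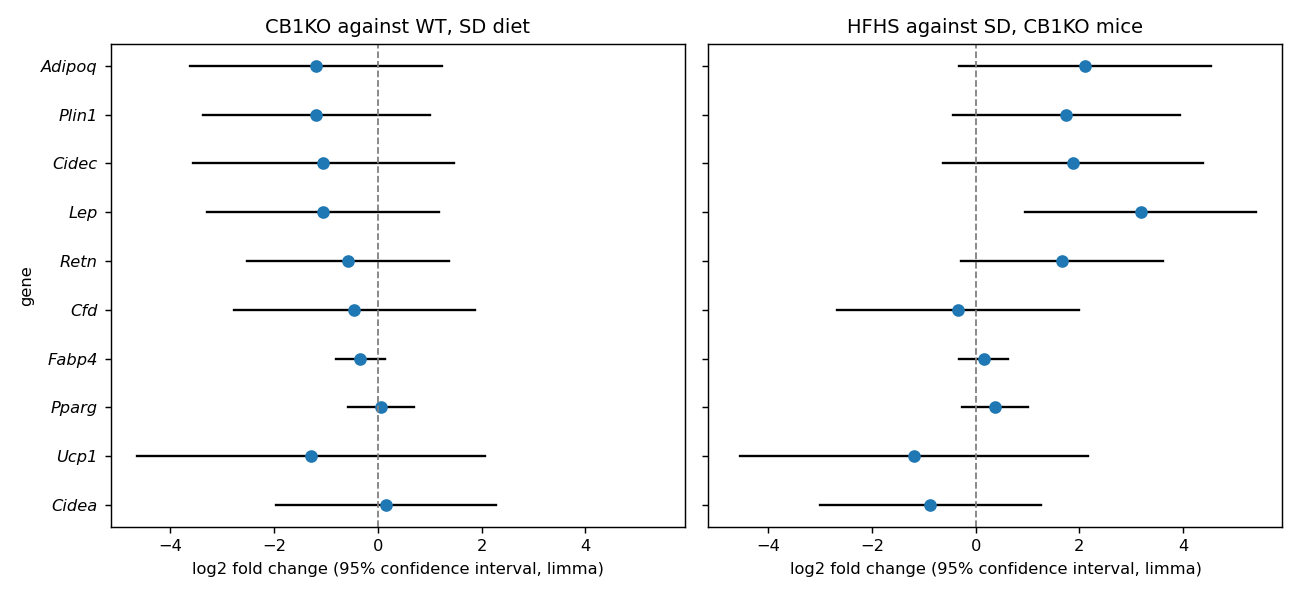
Log2 fold change (point) and 95% confidence interval (line, limma) of the 10 genes for CB1KO against WT on SD (left) and HFHS against SD in CB1KO (right). Every interval crosses 0 except that of Lep on the right, from 0.95 to 5.41, which is not adjusted for the number of genes tested.

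None of the 10 genes reached an unadjusted limma p under 0.05 in the remaining contrasts. Of all genes, 9.40% did so for CB1KO against WT on HFHS and 15.0% in the averaged genotype contrast. CB1KO against WT on HFHS ranged from -1.24 ± 1.56 (Ucp1) to 0.97 ± 1.04 (Lep), with a median of 0.20 against -0.14 over all genes and limma adjusted p-values of at least 0.772. The all-gene median was -0.04 there after quantile normalization, so that part of any shift below 0 depends on the scaling. HFHS against SD in WT ranged from -1.24 to 1.15, with a median of 0.27 against -0.06 and adjusted p-values of at least 0.994 (limma). The averaged genotype contrast ranged from -1.26 to 0.17, with adjusted p-values of at least 0.475, and the interaction from -1.01 to 2.03, with adjusted p-values of 1.00 after rounding (limma). Contrasts that share a group share its arrays, so the low CB1KO_SD replicate 3 enters both contrasts described above.

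Genes of the wider fat programme were counted in the same contrasts. None of the 29 white adipocyte, 24 brown adipocyte or 18 progenitor genes passed in any contrast, and none of the macrophage, endothelial, blood, nerve, skin, lymphocyte or fast fibre lists had a gene past the threshold. The lowest adjusted p in the white list was that of Car3, carbonic anhydrase 3, in the averaged genotype contrast (0.73 ± 0.19, limma adjusted p = 0.0929). In the averaged contrast, 1 of 20 adipogenic regulators fell (Srebf1, a regulator of lipid synthesis), 2 of 18 lipogenic genes fell (Srebf1 again and Pcx, pyruvate carboxylase), and 1 of 18 droplet genes rose (Plin3, a coat protein of nascent droplets).

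Srebf1 fell by 0.57 ± 0.12, Pcx by 0.65 ± 0.13, and Plin3 rose by 0.64 ± 0.13 on the log2 scale (SE, limma adjusted p = 0.0407, 0.039 and 0.0409). These calls were lost under 18, 15 and 15 of 29 alternatives. Their r with Adipoq was 0.04, -0.15 and -0.43. Among fibre and vessel genes, Lmod1, a smooth muscle actin nucleator, fell by 0.80 ± 0.17 (adjusted p = 0.0468, lost under 19 of 28 alternatives), and Sln, sarcolipin, the inhibitor of the calcium pump, rose by 4.27 ± 0.50 in the averaged contrast (adjusted p = 0.0022) and by 5.85 ± 0.71 on HFHS (adjusted p = 0.00459, limma). The Sln call was lost under 0 of 29 alternatives in the averaged contrast and under 1 of 29 on HFHS, where its highest adjusted p was 0.0638.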

How the data were processed

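Total RNA of 16 muscle samples, described as biological replicates, was labelled with Cy3 and hybridised to 1-colour Agilent arrays of 62976 spots. The authors' deposited scanner files hold processed spot intensity from Feature Extraction 11.5.1.1, background-corrected but not scaled between arrays, per the file headers (grid build mm9). The authors' deposited series table holds a score with unstated scale. Set against the scanner values, it was each array's log2 intensity, centred and divided by its SD, within 0.005, and it served as an alternative.

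Control and outlier spots were removed, and deposited processed intensity was turned into log2 and reduced by the array's 75th percentile. Spots of a probe were averaged, the brightest probe stood for a gene, and genes well above background on at least 4 arrays were kept (28964). Of 55681 probes, 28026 carried a symbol, and a probe without one stood for itself. limma 3.58.1 in R 4.3.3 fitted 1 mean per group over the 16 arrays, with Benjamini-Hochberg adjustment over all genes tested and a threshold of 0.05. Errors are SD between arrays or SE of limma, and the number of arrays limits the precision. The fit was tested on simulated data.

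Correlations used deviations from group means with permutation within groups, adjusted over all 26 relations computed rather than over the 9 pairs of genes that were planned. Members and lists were chosen with earlier results of these data known. Genes named were the 10 genes, Cnr1, list genes past the threshold or lowest in p, the 10 most like Adipoq, and Fabp3, Plin2 and Plin5. The single list genes quoted for their correlation or for their level on WT_SD replicate 3, Lpl, and the muscle genes of the identity check were chosen after their values were seen. Alternatives changed background correction, normalization, filter, probe rule, variance model, array weights, blocks and arrays left out. Replicate numbers were checked for pairing: deviations of same-numbered arrays correlated from -0.75 to 0.61 over 24 pairs, so the numbers were not taken to pair mice. Promoter sequences came from RefSeq (GRCm38.p6), and mm9 coordinates were not used here.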

Additional observations from a re-analysis of the deposited data

Results flagged for a closer look

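In 3 of 44 tests of a group of 4 arrays, 1 array's gap to its nearest neighbour, divided by the range of the group, exceeded Dixon's critical value at the 95% level. Chance alone gives such a gap in about 1 in 20 groups. Lep read -5.90 on CB1KO_SD replicate 3, where the next array of the group was at -2.92 (ratio 0.873), and the probe was not well above background there. Cidec read -1.51 on WT_SD replicate 4, where the next array was at 3.65 (ratio 0.851). Retn read 0.90 on WT_HFHS replicate 3, where the next array was at 1.86 (ratio 0.851).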

How the results depend on the processing

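None of the 10 genes passed the threshold in any contrast under any of the 28 or 29 alternatives run for it. The lowest adjusted p (limma) was 0.0578, for Fabp4 in the averaged genotype contrast. Over all genes, the number past the threshold ran from 0 to 227 for CB1KO against WT on SD, 15 to 2328 on HFHS, 59 to 2241 averaged, 0 to 11 for the interaction, 0 to 235 for HFHS against SD in WT and 0 to 142 in CB1KO. With the replicate number as a block, which the pairing check did not bear out, these counts were 1, 36, 59, 0, 0 and 0, 0 of the 10 genes passed, and Lep differed by 3.18 ± 0.89 in the last contrast (limma adjusted p = 0.29). Of 632 alternative values for 22 fold changes of the 10 genes (all 10 for CB1KO against WT on SD and HFHS against SD in CB1KO, Lep and Ucp1 for CB1KO against WT on HFHS), 611 kept their direction and 21 reversed. The cause of each reversal was not tested. Fabp4 for HFHS against SD in CB1KO was -0.17 in the deposited scores, -0.056 under array weighting and -0.075 once CB1KO_SD replicate 2 and CB1KO_HFHS replicate 1 were dropped. With array weights, CB1KO against WT on SD was -0.20 for Pparg and -1.06 for Cidea. With 1 array left out in turn, CB1KO against WT on SD ran from -1.52 to 0.42 for Cfd, -1.60 to 0.19 for Retn, -0.10 to 0.35 for Pparg, -2.12 to 0.25 for Ucp1 and -0.53 to 1.31 for Cidea. HFHS against SD in CB1KO ran from -1.05 to 0.27 for Cfd and -0.049 to 0.26 for Fabp4. Without the 2 arrays lowest in Adipoq, r with Adipoq was 0.73 for Fabp4, 0.67 for Pparg and -0.076 for Cidea. With group means left in, r was 0.73 for Cfd and -0.0011 for Cidea. The filter that required signal on all 16 arrays left 8 of the 10 genes, without Lep and Ucp1.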
